A study of Mus musculus with 6 samples.

Results

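Dppa2 was located in CGR8 cells, a feeder-free mouse embryonic stem cell (ESC) line, by ChIP-seq with an anti-V5 resin. The cells had been stably transfected with Dppa2 carrying a V5 epitope at its N terminus, expressed from a pPyCAG-driven vector and selected as puromycin-resistant clones, and CGR8 cells without the tag served as the control ChIP. There was 1 library of each, so that the values below have no replicate error. The locus described here is a stretch of 400 kb on chromosome 1 in the mm9 assembly, from the promoters of Glb1l and Stk16 to beyond the end of Slc4a3, which holds the genes Dnajb2, Des, Speg, Obsl1 and Slc4a3. These 5 genes were chosen by the peaks of the V5-Dppa2 library at their transcription start sites (TSSs), and their binding is therefore a description and was not tested. They are 5 of 22367 protein-coding genes in GENCODE M1 on the chromosomes that carry a peak, and the interval holds 5 of the 3336 peaks in the deposited list. A peak list carries no expression values, so the ESC label could not be set against marker genes.

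Dppa2 is a small nuclear protein with a SAP domain, a fold found in DNA-binding proteins, and is made in pluripotent cells and the early germ line. In ESCs it is known to occupy CpG-rich promoters, among them those of germline and developmental genes. Des encodes desmin, the intermediate filament protein of muscle, which links Z-discs to each other and to the membrane. Speg encodes a large kinase of striated muscle of the myosin light chain kinase family, and Obsl1 encodes a cytoskeletal adaptor that also works with the ubiquitin ligase subunit Cul7. Dnajb2 is a co-chaperone of Hsp70 that is abundant in neurons, and Slc4a3 is a chloride-bicarbonate exchanger of heart and brain.

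Sequences just before the TSSs are shown as examples of the promoters in the peaks. For 4 of the chosen genes the 150 bases before the most upstream TSS inside the peak are given, read 5′ to 3′ on the sense strand of mm9, with every CpG dinucleotide in capitals. They lie at chr1:75232890-75233039 (plus strand) for Dnajb2, chr1:75356754-75356903 (plus) for Des, chr1:75371722-75371871 (plus) for Speg and chr1:75503028-75503177 (minus) for Obsl1, all inside their peaks and before the first annotated exon of the gene. The last sequence in the list belongs to Dnpep, at chr1:75314213-75314362 (minus), the neighbour without a peak that had the highest CpG ratio.
Dnajb2: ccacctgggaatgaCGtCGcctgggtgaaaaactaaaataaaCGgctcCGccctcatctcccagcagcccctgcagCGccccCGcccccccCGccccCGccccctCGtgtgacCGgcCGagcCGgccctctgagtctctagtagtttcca
Des: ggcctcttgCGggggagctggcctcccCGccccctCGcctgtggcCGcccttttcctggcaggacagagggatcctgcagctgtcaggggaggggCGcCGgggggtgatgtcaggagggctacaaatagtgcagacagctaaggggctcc
Speg: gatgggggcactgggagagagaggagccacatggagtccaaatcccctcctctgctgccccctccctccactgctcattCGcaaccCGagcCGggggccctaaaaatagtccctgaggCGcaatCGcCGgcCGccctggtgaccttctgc
Obsl1: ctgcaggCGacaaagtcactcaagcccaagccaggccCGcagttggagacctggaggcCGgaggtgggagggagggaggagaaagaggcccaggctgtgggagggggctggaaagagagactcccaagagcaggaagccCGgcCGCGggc
Dnpep: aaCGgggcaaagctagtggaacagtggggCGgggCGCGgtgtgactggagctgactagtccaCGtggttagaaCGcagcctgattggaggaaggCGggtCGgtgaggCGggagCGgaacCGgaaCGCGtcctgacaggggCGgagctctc

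CpG dinucleotides were unevenly spread over these stretches, which do not cover all of the chosen genes. Dnajb2 had 12 in the 150 bases, Speg 7, Des 6 and Obsl1 6. Of the neighbours without a peak, Dnpep had 14 and Accn4, the one with the lowest CpG ratio, had 5 in the same stretch. At all 5 chosen genes the 500 bp after the TSS held more CpGs than the 500 bp before it, as described further below.

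Across the interval the 5 peaks covered 8232 bp, or 2.06% of its 400 kb. The peak score, a MACS p-value against the control ChIP written as its -log10 and multiplied by 10, was highest at Des with 293.08. Speg followed with 199.51, then Dnajb2 with 135.2, the peak shared by Obsl1 and Inha with 127.86, and Slc4a3 with 108.58. All were above 100, the score that corresponds to the p-value of 1e-10 required by the authors. Only the Des peak exceeded the median of all peaks, 228, and 65% of all peaks had a score at or below it. For Speg this share was 40.6%, for Dnajb2 16.1%, for Obsl1 and Inha 12.6% and for Slc4a3 4.14%. With a rank of 3199 among 3336 peaks, Slc4a3 stood just inside the threshold. The score reflects the number of reads as well as the enrichment, and without a second library it cannot be said which neighbours in this order differ beyond their spread.

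**Figure D1:**
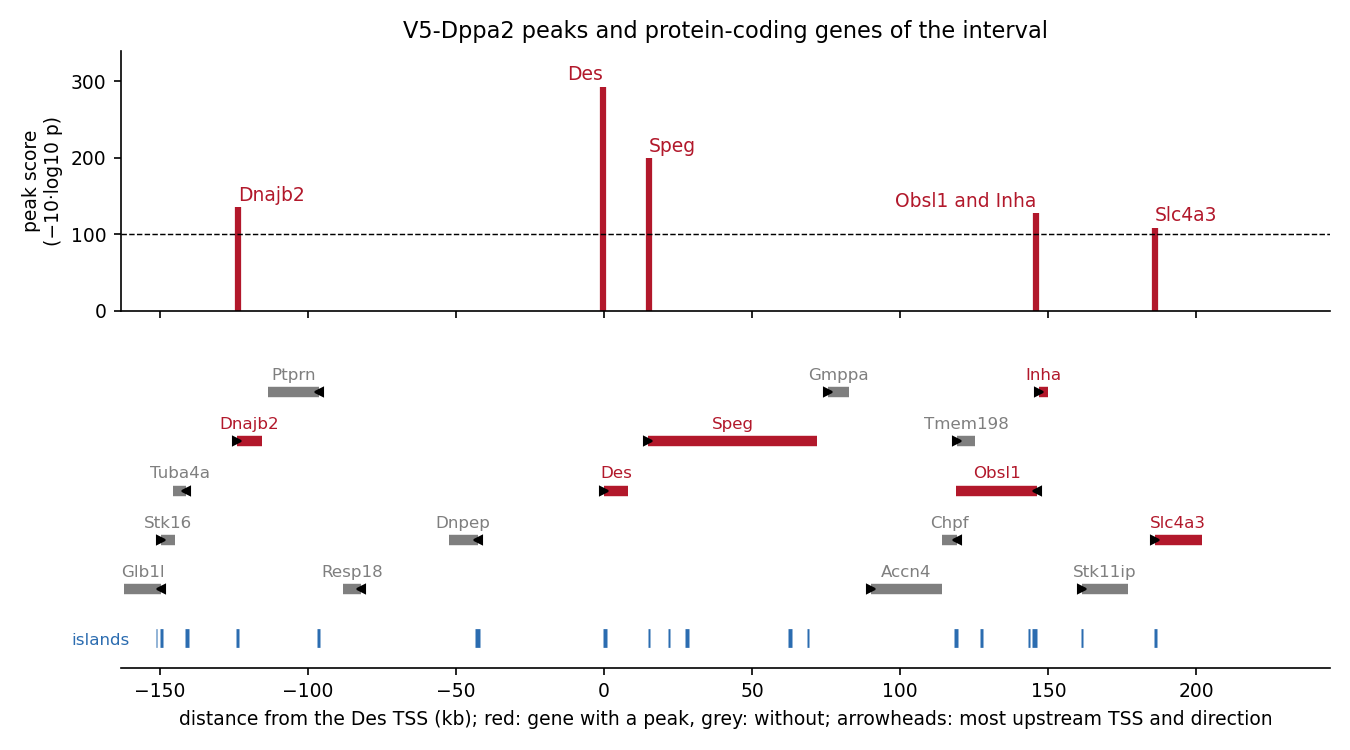
The upper panel plots the score of each of the 5 peaks (bars, with the score of 100 required by the authors as a dashed line) and the lower panel the 17 protein-coding genes as bars with arrowheads at the most upstream TSS, both against the distance from the Des TSS in kb. Red marks the 6 genes with a peak and grey the 11 without, and the 18 blue marks are CpG islands of at least 500 bp. The highest bar, 293.08, stands at Des.

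The Des peak spanned chr1:75355523-75357723 and was 2201 bp wide, wider than most (90.2% of all peaks were of that width or narrower). Des (ENSMUSG00000026208) lies on the plus strand from 75356904 to 75365154. The peak reached 1381 bp upstream of the TSS and 819 bp downstream, and its midpoint lay at -281 bp from the TSS in intergenic sequence. Over its length, 1381 bases were intergenic, 575 coding, 156 intronic and 89 in the 5′ UTR. Of the 3 annotated TSSs of Des, the peak held the one at 75356904. The next was 378 bp past the end of the peak.

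The Speg peak spanned chr1:75371263-75372666, 1404 bp, close to the median width of all peaks of 1433 bp. Speg (ENSMUSG00000026207) is a long gene with several promoters, which gives rise to striated and smooth muscle isoforms, and lies on the plus strand from 75371872 to 75428895. Only the most upstream of its 14 annotated TSSs lay in the peak, where its longest transcript starts. The peak midpoint was 92 bp downstream of it, in the 5′ UTR. The other 13 TSSs were between 6023 bp and 47.4 kb from the peak. Speg has 15 annotated transcripts over its 14 TSSs, and the TSS at 75378689 is the only one that any of them share. It sits in a CpG island and had no peak. The island was 687 bp long when called with windows of 500 bp, and 991 bp by the looser definition given below. The Speg peak also covered the TSS of Gm15179 at 75371587, an antisense transcript that starts 285 bp before Speg and runs towards Des. The midpoint was at -377 bp from that TSS. As a peak list has no strand, the signal cannot be divided between the pair.

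The peak at Obsl1 was the widest of the 5, with 2406 bp at chr1:75501621-75504026 (94.4% of all peaks were of that width or narrower). Obsl1 (ENSMUSG00000026211) runs on the minus strand from 75503027 down to 75475885, and Inha (ENSMUSG00000032968), which encodes the alpha subunit of inhibin, a gonadal hormone that lowers follicle-stimulating hormone, runs the other way from 75503652 to 75506941. Their outermost TSSs are 625 bp apart and both lay in the peak. The midpoint was 109 bp downstream of the nearest Obsl1 TSS, in a 5′ UTR, and at -829 bp, that is upstream, from the Inha TSS. Of the peak, 1216 bases were coding sequence of Obsl1 or Inha. Of the 12 TSSs of Obsl1, 4 lay in the peak and 8 were between 1366 bp and 17.8 kb away. Inha is no member of the chosen set but meets the same criterion, a midpoint within 1 kb, through this shared peak. With a window of 500 bp it would not.

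Dnajb2 had the narrowest peak, 950 bp at chr1:75232771-75233720 (5.91% of all peaks were of that width or narrower). Dnajb2 (ENSMUSG00000026203) lies on the plus strand from 75233040 to 75241379, and its 4 transcripts share a TSS, which the peak held. The midpoint was 205 bp downstream of it in the 5′ UTR, and 419 of the 950 bases were UTR sequence. The Slc4a3 peak spanned chr1:75542351-75543621, 1271 bp. Slc4a3 (ENSMUSG00000006576), on the plus strand from 75542841 to 75558747, has 12 annotated TSSs, of which 7 lay in the peak, from 75542841 to 75543219. The midpoint was 145 bp downstream of the first of these and at -51 bp from the one nearest to it.

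**Figure D2:**
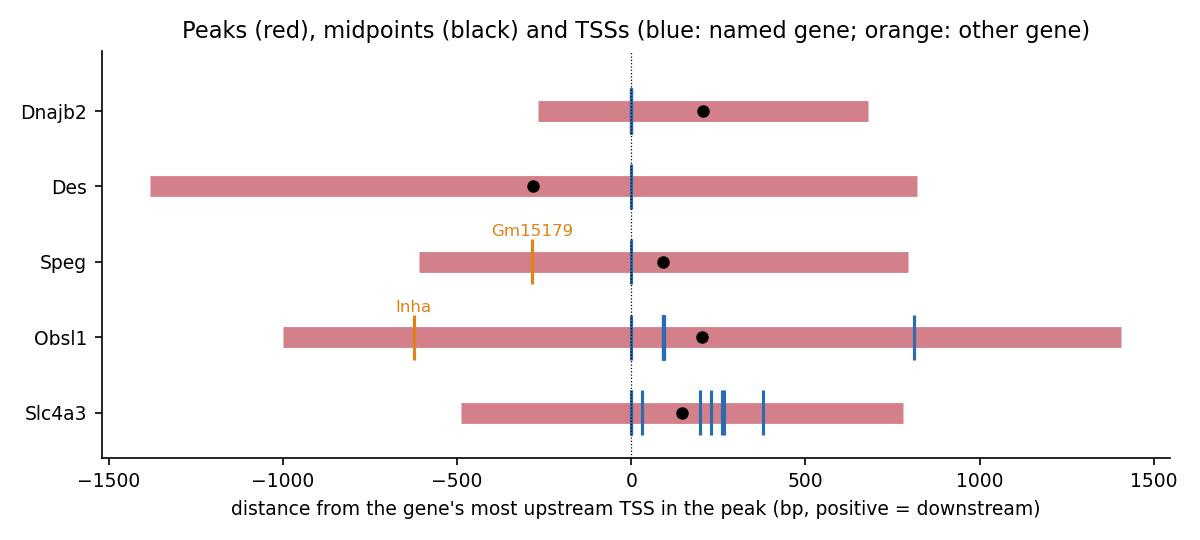
Each red bar is a peak, drawn along the distance in bp from the most upstream TSS of the named gene inside it, with the midpoint as a black dot. Blue ticks are TSSs of the named gene and orange ticks those of Gm15179 and Inha. The midpoint of the Des peak lies at -281 bp from the TSS, while those of the other 4 peaks lie after it.

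Taken by the TSS nearest to the midpoint, the midpoints lay at -281 bp (Des), -51 bp (Slc4a3), 92 bp (Speg), 109 bp (Obsl1) and 205 bp (Dnajb2). Over all 3169 protein-coding genes with a peak, the median was 121 bp with quartiles at -28 and 289 bp. The Des midpoint was thus farther upstream than the lower quartile, and that of Slc4a3 too, while the other 3 fell between the quartiles.

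**Figure D3:**
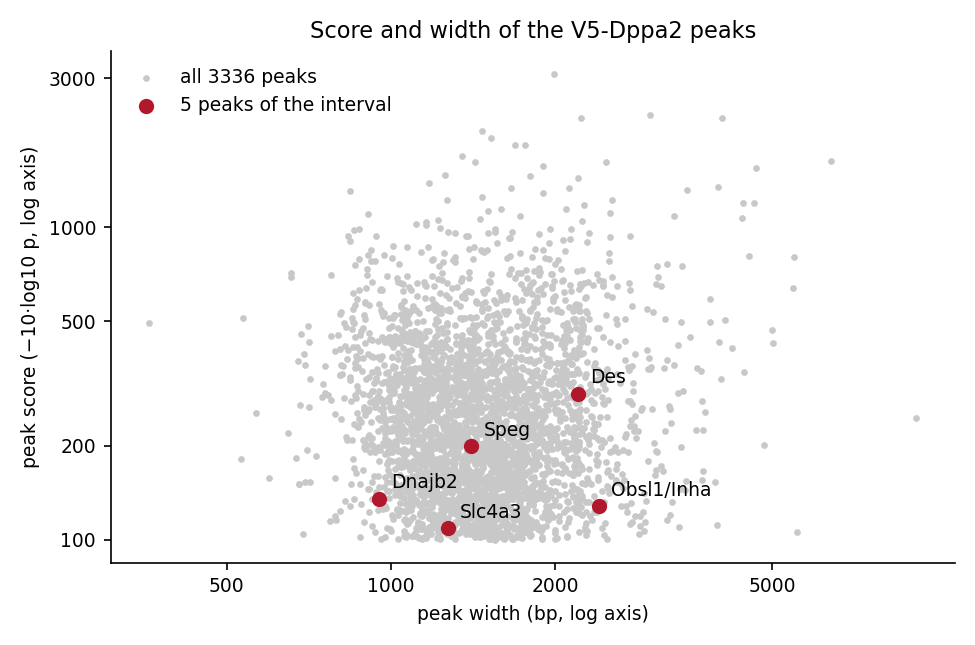
Width (x axis, bp) and score (y axis) of all 3336 peaks in grey and of the 5 peaks of the interval in red, both on log axes. Des and the peak of Obsl1 and Inha had widths of 2201 and 2406 bp but scores of 293.08 and 127.86, and Slc4a3 lay at the lower edge with 108.58.

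Between neighbouring midpoints the gaps were 123 kb (Dnajb2 to Des), 15.3 kb (Des to Speg), 131 kb (Speg to Obsl1) and 40.2 kb (Obsl1 to Slc4a3), so that all 5 lay within 310 kb. The median gap between adjacent peaks of the list was 256 kb, and 4.56% of the 3315 gaps were as short as the one between Des and Speg, while 32.8% were no longer than the one between Speg and Obsl1. Des ends 6718 bp before the first TSS of Speg, and both are transcribed in the same direction. The nearest peaks outside lay far from the edges of the interval. The one before it, at Gpbar1, a bile acid receptor gene, had its midpoint 0.874 Mb from the edge and a score of 377.1. The one after it, at Acsl3, which encodes an acyl-CoA synthetase, was 3.05 Mb from the edge, with a score of 146.46. Among the 4943 tiles of 400 kb that hold a protein-coding TSS, 2910 had no peak and 52, or 1.05%, had at least 5. This interval is itself such a tile, and the only one of its kind on chromosome 1. It is also rich in genes, with 17. Of the 143 other tiles with 15 to 19 genes, 16 had at least 5 peaks, which is 11.2%, and their median was 1 peak with a range from 0 to 8. As the interval was picked for its peaks, these shares are given as a description. The list holds peaks at TSSs, so the gaps, distances and counts above say nothing on binding elsewhere.

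Of the 17 protein-coding genes with a TSS in the interval, 6 had a peak midpoint within 1 kb, or 35.3%, namely the 5 chosen genes and Inha. Over all protein-coding genes the share was 14.2%, and over those of chromosome 1 it was 13.8% (171 of 1238), but since the genes were chosen by their peaks, nothing is read from this difference. Counting every gene type, 7 of 22 genes had a peak against 10.2% of all annotated genes. The seventh was Gm15179, and the processed transcript Gm15178 and 3 pseudogenes had none.

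Of the 11 genes without a peak, 3 lie before the first gene with one and the other 8 between genes with one. Before Dnajb2 lie Glb1l, a galactosidase-like gene, Stk16, which encodes a membrane-associated kinase, and Tuba4a, which encodes an alpha-tubulin. Their nearest peak midpoint was 25.9, 23.6 and 17.4 kb away. Between Dnajb2 and Des lie Ptprn and Resp18, genes of dense-core secretory vesicles, and Dnpep, an aspartyl aminopeptidase, at 27.5, 41.7 and 42.4 kb. Gmppa, involved in GDP-mannose metabolism, Accn4, which encodes an acid-sensing ion channel subunit, Chpf, which encodes a chondroitin polymerizing factor, and Tmem198, a membrane protein gene, lie between Speg and the Obsl1 promoter at 60.5, 55.5, 26.8 and 26.7 kb. Chpf and Tmem198 start 61 bp apart in opposite directions, as Glb1l and Stk16 do at 60 bp, and neither of these divergent promoters had a peak. Stk11ip, which encodes a partner of the kinase Lkb1, lies between Inha and Slc4a3, 13.4 kb from the nearest midpoint. No gene lay close to the limit of 1 kb, since the nearest peak edge to any of the 11 was 12.7 kb away. Weaker signal at these TSSs could not be examined, as the list holds only peaks past the authors' thresholds and its depth is unknown.

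CpG content was compared next, because bound genes in the whole list had a higher ratio of observed to expected CpGs than the rest (median 0.776 against 0.467 in the 1000 bp around the TSS). Within the interval the groups overlapped. The 6 genes with a peak had a median of 0.638, from 0.251 at Inha over 0.601 at Speg, 0.607 at Slc4a3 and 0.669 at Dnajb2 to 0.702 at both Des and Obsl1. The 11 genes without one had a median of 0.59, from 0.419 at Accn4 to 0.922 at Dnpep, with 0.707 at Tmem198, 0.699 at Chpf and 0.697 at Tuba4a. The order of these medians turned with windows of 500 bp (0.63 with a peak against 0.675 without) and 2000 bp (0.493 against 0.533). The genes with the highest ratio, Dnpep and Tmem198, were thus without a peak, and the gene with the lowest, Inha, shared one. GC content was likewise interleaved, from 56.1 to 69.2% with a peak and from 50.8 to 71.4% without. The genes are not replicates and no test was made. For Speg the value was taken at the internal TSS shared by the largest number of transcripts. At the TSS in the peak the ratio was lower, 0.522, and the internal TSS without a peak had 72 CpGs in 1000 bp against 57 there.

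**Figure D4:**
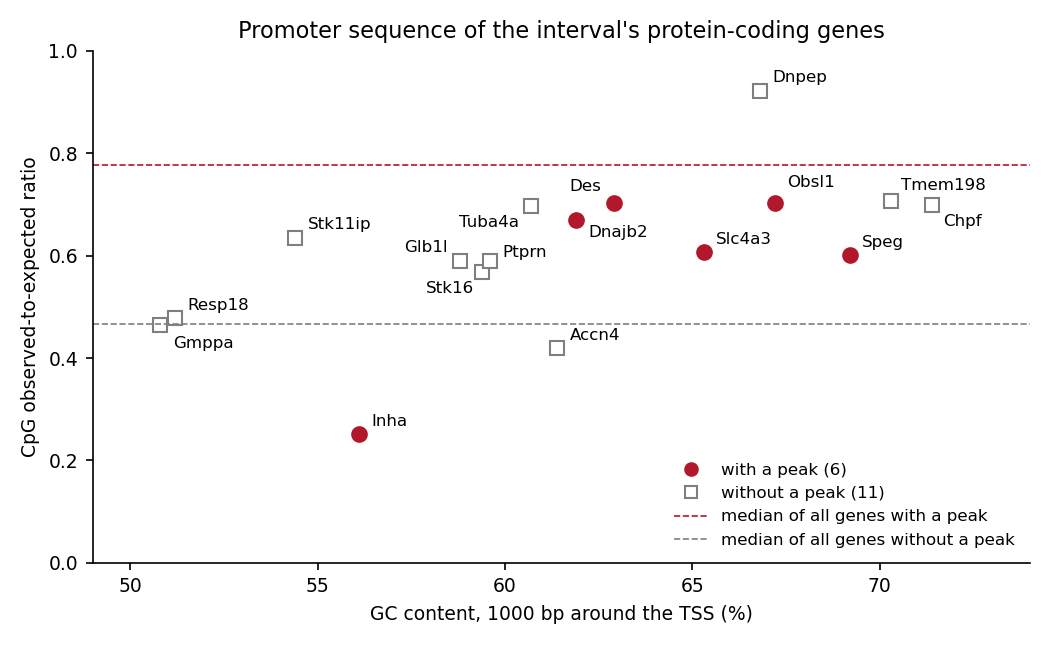
GC content (x axis, %) and the ratio of observed to expected CpGs (y axis) in the 1000 bp around the TSS of the 17 protein-coding genes, with red circles for the 6 genes with a peak and open squares for the 11 without. Dashed lines give the medians of all genes with a peak (0.776) and without one (0.467). The circles and squares are interleaved, with Dnpep highest at 0.922 and Inha lowest at 0.251.

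The share of bound genes was also taken by CpG class. In the list as a whole 31.2% of the 4582 genes with a ratio of at least 0.8 had a peak, 17.8% of those from 0.6 to 0.8, 13.1% from 0.4 to 0.6 and 6.28% from 0.2 to 0.4. In the interval, the only gene of the top class, Dnpep, had none. Of the 9 genes in the class from 0.6 to 0.8, 5 had a peak, of the 6 genes from 0.4 to 0.6 none had, and Inha, the only gene from 0.2 to 0.4, shared one. The 5 are the genes chosen by their peaks, so nothing is read from these counts. These classes use the TSS shared by the largest number of transcripts, or on a tie the most upstream of those. At the TSS nearest to the peak midpoint the ratio was 0.522 for Speg and 0.58 for Slc4a3, so that both would move to the class from 0.4 to 0.6.

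Measured over the peaks themselves, the ratio was 0.666 at Obsl1, 0.654 at Dnajb2, 0.578 at Des, 0.535 at Slc4a3 and 0.445 at Speg. All 5 were below the median of all peaks, 0.713, and the Speg peak was lower than most, as 15.4% of peaks had its ratio or less. The peaks held 163, 64, 113, 69 and 62 CpGs in the same order. GC content ran from 59.6% at Des to 64.8% at Slc4a3, around the median of all peaks of 62%.

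Within the promoters the CpGs lay mainly after the TSS. Des had 18 CpGs in the 500 bp before the TSS and 52 in the 500 bp after it. Obsl1 had 15 before and 64 after, Dnajb2 21 and 43, Speg 17 and 40, and Slc4a3 25 and 39. Inha had 7 and 12, and its window gained CpGs only beyond 500 bp upstream, towards and inside Obsl1. The highest count, 18 in 100 bp, was centred at -1450 bp from the Inha TSS, inside the Obsl1 gene. All 6 genes with a peak had more CpGs after than before the TSS, and so did 8 of the 11 without one, the exceptions being Glb1l, Tuba4a and Tmem198. The arrangement was therefore common in the interval and not limited to genes with a peak.

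**Figure D5:**
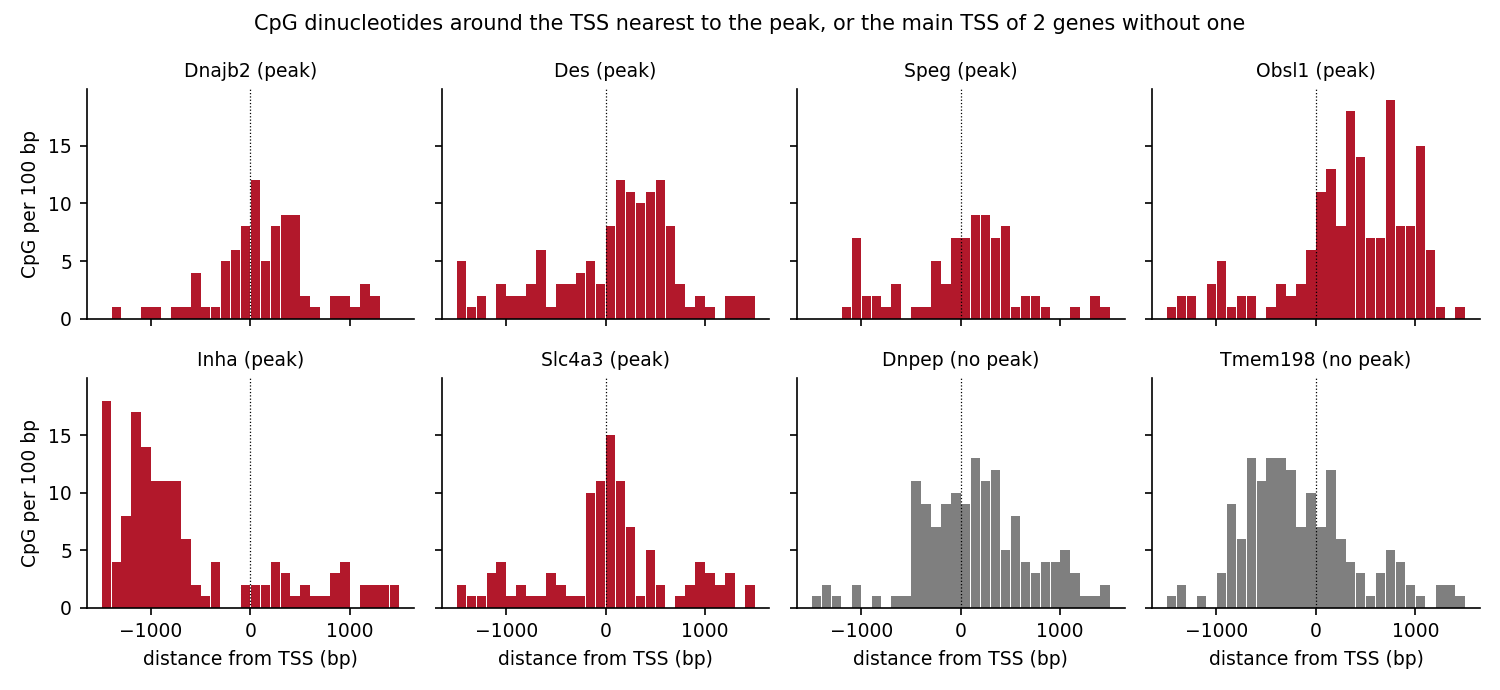
Number of CpGs in each 100 bp (y axis) against the distance from the TSS in bp (x axis), for the 6 genes with a peak (red, at the TSS nearest to the midpoint) and for Dnpep and Tmem198, which had none (grey, at the main TSS). CpGs at Des and Obsl1 lie mostly downstream of the TSS, while Inha has few around its own TSS.

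CpG islands were then called on the mm9 sequence of the interval. With windows of 500 bp, a GC content of at least 55% and a ratio of at least 0.65 there were 18 islands, of which 5 overlapped a peak, and each peak had 1 of them. The islands with a peak were 998 bp long at Dnajb2, 1196 bp at Des, 595 bp at Speg, 1652 bp at Obsl1 and 914 bp at Slc4a3. The 13 islands without a peak had a median length of 983 bp against 998 bp for those with a peak, and the longest were those of Dnpep (1552 bp) and of Chpf and Tmem198 (1551 bp). Of the islands without a peak, 4 lay in the body of Speg and 2 in that of Obsl1. Of the 18 islands, 2 held no protein-coding TSS, both in the body of Speg. As the list holds peaks at TSSs, the lack of a peak there says nothing on binding. The looser definition of 200 bp, 50% and 0.6 gave 97 islands, of which 7 touched a peak, 3 of these at Des. Of the 97 islands, 78 held no protein-coding TSS, and the same limit holds for these. By that definition islands made up 92.1% of the Dnajb2 peak, 63.3% of that of Des, 59.4% at Obsl1, 47% at Speg and 46.2% at Slc4a3. The order depended on the definition, since with windows of 500 bp the shares were 87.6% at Dnajb2, 71.9% at Slc4a3, 65.6% at Obsl1, 46.7% at Des and 42.4% at Speg. The wide Des and Obsl1 peaks reached beyond their islands of the longer definition on the upstream side.

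Short motifs were counted on both strands in the 300 bp from 250 bases before to 50 after the most upstream TSS. The GC box GGGCGG, bound by Sp1, was present in 43.4% of all protein-coding promoters, in 4 of the 6 with a peak here and in 5 of the 11 without. Dnajb2 had 5 copies, Des 3, Speg 3 and Slc4a3 1, and Obsl1 and Inha had none. TATAAA was found in none of the 17 promoters and in 13.4% of all. The E-box CAGCTG, a form used by myogenic factors, was present in 15.2% of all promoters and here at Des, Obsl1 and Resp18. CCAAT was present in 37.9% of all promoters, in 1 of the 6 with a peak (Obsl1) and in 4 of the 11 without. A further motif, CTANNNNTAG, the frame of the site read by the muscle factors of the MEF2 family, was chosen after the Des and Speg sequences had been read, so its count is no evidence of its own. It was present in 3.55% of all promoters. At Des it read CTACAAATAG from base -31 to -22, and at Speg CTAAAAATAG from -51 to -42. At Obsl1 it read CTATACTTAG from -228 to -219, and at Resp18, which had no peak, CTAGCGCTAG from 2 to 11. Of the 4 matches, only that at Speg had nothing but A and T at the free positions. No match overlapped one of another motif. None of the matches was tested as a binding site.

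Reads from other copies of a sequence can raise a peak, because the best alignment of a read was kept. The peaks of Dnajb2, Speg and Slc4a3 held no 36-mer that occurs elsewhere in mm9. In the Des peak it was 1 of 2166, and in that of Obsl1 and Inha 32 of 2371, or 1.35%. None of the 11 neighbours without a peak had a repeated 36-mer in the 1000 bp around its TSS. Exact copies alone were counted, while the authors' mapping allowed up to 2 mismatches in a seed of 36 bases. Near copies were not examined.

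The relatives of these genes elsewhere in the genome were examined through lists written with earlier results of these data known. Of 38 genes of the striated muscle cytoskeleton and sarcomere, 8 had a peak, or 21.1%, beside 14.2% of all protein-coding genes. Leaving out Des and Speg it was 6 of 36. The 6 were Synm (score 485.41), which encodes synemin, a filament partner of desmin, Tcap (472.95), which encodes the titin cap telethonin, Cryab (357.26), which encodes the small heat shock protein that chaperones desmin, Nebl (166), which encodes nebulette of the Z-disc, Plec (106.96), which encodes the linker plectin, and Bag3 (106.83), a co-chaperone gene. The Tcap midpoint lay 684 bp from the TSS, outside a window of 500 bp. Ttn, Neb and Ccdc141 were among the 30 without a peak. At a score of at least 200, 4 of the 8 were left, while 40.6% of all peaks scored 199.51 or less.

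The close families gave small counts, which include the genes chosen by their peaks. Over all protein-coding genes the share with a peak was 14.2%. Among the type III intermediate filament genes Des had a peak, and Vim, Gfap and Prph had none. Of the 9 relatives of Speg and partners of Obsl1, 3 had a peak, Speg, Obsl1 and Mylk2 (137.15), a skeletal muscle myosin light chain kinase gene, and Ttn, Mylk and Mylk3 were among those without. Of 13 Dnajb genes, 2 had a peak, Dnajb2 and Dnajb3 (180.02), and Dnajb1, Dnajb4, Dnajb5 and Dnajb6 were among those without. Of 10 Slc4 genes, 2 had a peak, Slc4a3 and the bicarbonate cotransporter gene Slc4a7 (180.43), and Slc4a1, Slc4a2, Slc4a4 and Slc4a5 were among those without. Without the genes of the interval, a peak was found at 0 of 3 type III filament genes and 1 of 7 in the Speg and Obsl1 list. For the Dnajb genes it was 1 of 12 and for the Slc4 genes 1 of 9. The Mylk2 midpoint lay 502 bp from the TSS, just outside a window of 500 bp.

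For the inhibin and activin pathway, to which Inha belongs, 5 of 13 genes had a peak, or 38.5%, and leaving out Inha it was 4 of 12. Besides Inha these were Fstl3 (303.94), which encodes a secreted activin antagonist, and the receptor genes Acvr2a (200.65), Acvr2b (155.72) and Acvr1 (131.58). The Fstl3 midpoint lay 628 bp from the TSS, and with a window of 500 bp neither Fstl3 nor Inha would count. The beta subunit genes Inhba, Inhbb, Inhbc and Inhbe had no peak. Against the background of 14.2%, these lists hold too few genes to read a difference from, and no test was made.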

How the data were processed

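Anti-V5 ChIP-seq of V5-Dppa2 CGR8 cells was examined through its peak list (1 library). The control ChIP entered through peak calling alone, and the other 5 samples had no values of their own here. The score deposited by the authors is a MACS p-value as its -log10, multiplied by 10. The authors removed low-complexity reads, mapped to mm9 with Bowtie 0.12.7, removed duplicates and called peaks with MACS 1.4.2 (versions from the submitters' processing notes), with limits of 1e-10 on the p-value and 100 on the reads in a peak. Read depth is unknown. The list holds peaks at TSSs.

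Starts were converted from BED to 1-based positions. A gene was bound when a peak midpoint lay within 1 kb of any TSS in GENCODE M1. Genes of the interval had a TSS between 75200000 and 75600000. CpG and GC content was taken over 1000 bp around the TSS shared by the largest number of transcripts. On a tie the most upstream of those was taken, as at Des, whose 3 transcripts have 3 TSSs. Motifs were counted at the most upstream TSS. Printed sequences end before the outermost TSS in the peak, in place of the planned TSS nearest to the midpoint, so that no UTR is shown. Dnpep was printed as the unbound neighbour with the highest ratio. Some planned items are not reported here. Steps were tested on simulated data. Named were the 5 members, all protein-coding genes of the interval, the next peak on each side, and in each list the genes with a peak and up to 4 without. Members and lists were chosen with earlier results of these data known. Python 3.11.15, numpy 2.4.6, numba 0.67.0 and matplotlib 3.10.9 were used.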

Additional observations from a re-analysis of the deposited data

How the results depend on the processing

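No paired analysis was possible because no result comes from a test between groups, and with 1 library no replicate could be left out. A score of at least 200 left 1 peak and 1 gene of the interval, Des, since Speg stood at 199.51. Of all peaks, 40.6% had the score of Speg or less. The limit of 200 left 4 genes of the muscle list, 2 of the inhibin and activin list and 1 of the type III filaments. It left 0 each of the Speg and Obsl1 relatives, the Dnajb and the Slc4 genes, as fewer peaks enter. Merged peaks remained 5. The 6 genes with a peak became 5 with a window of 500 bp, without Inha, 5 with the TSS shared by the largest number of transcripts, without Speg, 7 with all gene types, and were 6 with 2 kb or any base. The longer island definition lowered the number of islands from 97 to 18. The median CpG ratio of genes with a peak ran from 0.493 (2000 bp) to 0.669 (without Inha; this and the TSS nearest to the peak, 0.625, were chosen after seeing the data) and that of genes without from 0.533 to 0.675; with 500 bp and 2000 bp the order of the medians turned (0.63 against 0.675 and 0.493 against 0.533).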
